A study of Mus musculus with 9 samples.

Results

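The smooth muscle and pericyte genes described here were Acta2, Actg2, Myh11, Myl9, Cnn1, Tagln, Des, Pdgfrb, Cspg4 and Heyl. They made up 10 of the 34797 gene names on the array and 10 of its 55681 probes, with 1 probe each. They were taken by name as genes of contractile and mural cells, and because several of them had been seen to be higher in papilloma and not in tumor in these same values. Their differences between lesion and skin and between the lesions are therefore given as a description, with no test.

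The cells were Gr-1bright neutrophils, sorted to over 98% purity from dissociated skin lesions and surrounding skin of FVB/N mice. By the study's methods, lesions were digested with collagenase IV, dispase II and DNase I, and surrounding skin with collagenase IV alone. In comparisons of lesion with skin, tissue and digestion therefore cannot be told apart. All mice, those that gave the control cells included, had received the carcinogen DMBA when they were 6 and 13 weeks old and the tumor promoter PMA from week 1 to week 18 to 20. Papilloma skin (2 arrays) and tumor skin (2 arrays) were the skin around papillomas and around carcinomas, and papilloma (3 arrays) and tumor (2 arrays) were those lesions, so that no group came from untreated skin. Each array held RNA pooled from several mice, and a p-value here measures the spread between such pools. The mice were female, and by the study's methods a pool came from fewer mice at the papilloma stage than at the tumor stage. A figure legend of the study gives other numbers of mice, by which this order does not hold for the lesions.

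Smooth muscle cells and pericytes, together called mural cells, wrap blood vessels, and smooth muscle also forms the arrector muscle of the hair follicle. Their contractile genes are switched on by serum response factor with its partner myocardin, pericytes are drawn to new vessels by PDGF-B acting on its receptor, and Notch signaling from the endothelium keeps mural cells differentiated. Several of the same genes are also made by myofibroblasts in wounds and tumor stroma, whereas none of them is a defining gene of neutrophils.

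Values below are log2 levels from the table that the authors deposited, in which a difference of 1 is a change of 2-fold. In the scanner files the signal range was compressed on 3 of the 9 arrays (papilloma skin 1, tumor skin 1, tumor 1), with a slope of the spike-in controls of 0.678 to 0.894 against 1.04 to 1.06 on the other 6. On those 3 arrays 90.7% to 95.0% of all probes counted as well above background, against 43.5% to 63.5% on the other 6. Being well above background therefore says little on the 3 compressed arrays. The table's columns for papilloma skin 1 and tumor 1 also ranked the probes less like their own scanner file (rank correlation of 0.588 and 0.827) than like that of tumor 2 (0.924 and 0.947), and those for papilloma 2 and papilloma 3 were each closest to the other's file. The members' differences and the counts of called probes in each list are also given without papilloma skin 1 and tumor 1. All 13 probes of the neutrophil list were well above background on all 9 arrays, among them S100a8 at 17.88 to 18.22 and S100a9 at 18.45 to 18.63.

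In 9 of the 10 genes all 3 papilloma arrays lay above all 6 other arrays, which was the case for 5.22% of all probes. Des was the exception. In papilloma versus papilloma skin 9 members met the thresholds of the study in limma (adjusted p of at most 0.05, a difference of at least 1 and a mean level of at least 6), where 2.18% of all probes were called higher. In tumor versus tumor skin Pdgfrb alone did, against 2.71% of all probes called higher. In tumor versus papilloma 9 members were called lower, against 0.334% of all probes. Without papilloma skin 1 and tumor 1, which left 1 array in each of their groups, the median member differences in these comparisons were 1.87, 0.31 and -1.91. No call in tumor versus papilloma held in that fit, for members or for any other probe. Without either tumor array alone fewer members were called lower there, and fewer of all probes were as well. The member counts restate how the genes were chosen. In RNA of pooled sorted cells, more cells of another type and more RNA per cell cannot be told apart. The median member difference was 1.80 in papilloma versus papilloma skin, 0.18 in tumor versus tumor skin and -1.94 in tumor versus papilloma, where the median of all probes within slides was -0.04 to 0.02.

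**Figure D1:**
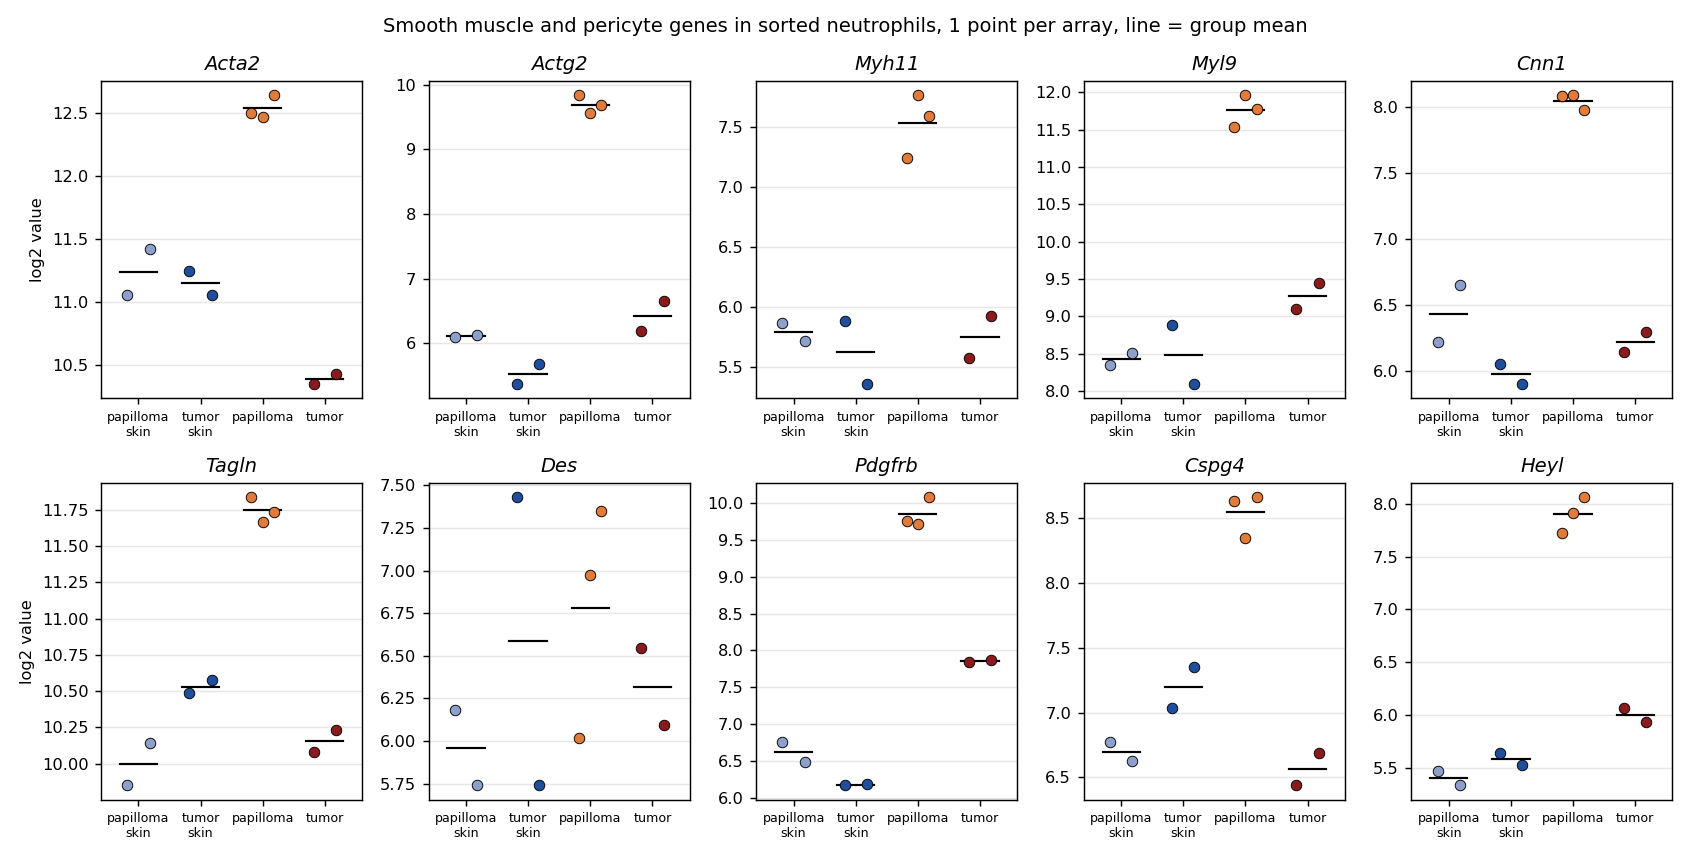
Log2 value of each of the 10 genes (vertical axes, each with its own range) on each array, with 1 point per array, grouped on the horizontal axis, and a line at the group mean. The 3 papilloma points lie above every other point in 9 panels, and in the panel for Des the groups overlap.

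Of the 2 actins, Acta2 (probe at mm9 chr19:34316060-34316119, minus strand) encodes smooth muscle alpha-actin, the thin filament protein of vascular smooth muscle and of myofibroblasts. Its level was 11.05 and 11.42 in papilloma skin, 11.25 and 11.06 in tumor skin, 12.51, 12.47 and 12.64 in papilloma, and 10.35 and 10.43 in tumor. Papilloma was the highest group and tumor the lowest, with both tumor arrays below all 4 skin arrays and no overlap between lesion groups. Mean levels were 11.24 ± 0.26 (SD, n = 2), 11.15 ± 0.13 (SD, n = 2), 12.54 ± 0.09 (SD, n = 3) and 10.39 ± 0.05 (SD, n = 2), so that papilloma was 2.47-fold above its skin and tumor 1.69-fold below its own. The skin groups differed by less than the spread of papilloma skin.

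Actg2 (probe at mm9 chr6:83462904-83462963, minus strand) encodes the gamma-actin of gut, bladder and other visceral smooth muscle, and it had the largest papilloma difference of the 10 genes in this table. Its level was 6.09 and 6.13 in papilloma skin, 5.37 and 5.67 in tumor skin, 9.84, 9.57 and 9.68 in papilloma, and 6.18 and 6.65 in tumor. Papilloma stood 2.91 above the highest other array, tumor 2. The means of 6.11 ± 0.03 (SD, n = 2) in papilloma skin and 9.70 ± 0.14 (SD, n = 3) in papilloma gave a 12.03-fold difference, and tumor was 1.86-fold above tumor skin. Tumor skin 2 was not well above background for Actg2, and tumor skin 1 was, but that array was compressed. In the scanner signals, quantile normalized without slide correction, Actg2 had 2.90 on tumor skin 2 and 3.07 on tumor skin 1.

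Among the motor and calponin family genes, Myl9 (probe at mm9 chr2:156607301-156607360, plus strand) encodes the regulatory light chain whose phosphorylation switches smooth muscle myosin on. Its level was 8.34 and 8.51 in papilloma skin, 8.88 and 8.10 in tumor skin, 11.54, 11.96 and 11.78 in papilloma, and 9.10 and 9.45 in tumor. Papilloma lay 2.09 above any other array, and tumor lay between papilloma and the skin groups without overlap. Papilloma was 10.1-fold above papilloma skin and tumor 1.72-fold above tumor skin. The order of the skin means, 8.43 ± 0.12 and 8.49 ± 0.55 (SD, n = 2 each), was within their spread.

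Myh11 (probe at mm9 chr16:14202190-14202249, minus strand) encodes the smooth muscle myosin heavy chain, a marker that is largely restricted to mature smooth muscle. Its level was 5.86 and 5.72 in papilloma skin, 5.89 and 5.36 in tumor skin, 7.24, 7.77 and 7.59 in papilloma, and 5.57 and 5.92 in tumor. The 6 arrays outside papilloma overlapped one another. Papilloma was 3.35-fold above papilloma skin, whereas tumor and tumor skin differed by 1.09-fold, less than the spread within either group. Tumor skin 2 was not well above background.

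Cnn1 (probe at mm9 chr9:21913058-21913117, plus strand) encodes calponin, an actin-binding protein that restrains myosin in resting smooth muscle. Its level was 6.22 and 6.65 in papilloma skin, 6.05 and 5.91 in tumor skin, 8.08, 8.08 and 7.97 in papilloma, and 6.14 and 6.29 in tumor. The papilloma arrays had an SD of 0.06 (n = 3), and their mean was 3.05-fold above papilloma skin. Tumor was 1.18-fold above tumor skin, a difference of 0.24 in which the arrays did not overlap, and 1 of the 2 tumor skin arrays was well above background.

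Tagln (probe at mm9 chr9:45738097-45738156, minus strand) encodes transgelin, an early marker of the smooth muscle lineage that binds actin. Its level was 9.85 and 10.14 in papilloma skin, 10.49 and 10.58 in tumor skin, 11.84, 11.66 and 11.74 in papilloma, and 10.08 and 10.23 in tumor. Papilloma was 3.37-fold above papilloma skin, and tumor was 1.30-fold below tumor skin. As with Acta2, all tumor arrays lay below all tumor skin arrays.

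Serum response factor binds the CArG box, a motif of 10 bases that reads the same on both strands. RefSeq promoter windows (build GRCm38.p6) were at hand for 5 of the 10 genes (Acta2, Myl9, Cnn1, Des and Cspg4), and the 250 bases before the start were searched. Only Myl9 held an exact match, 161 bases before the start, as did 1.47% of 32851 windows of that length. With up to 1 of the bases off, Myl9 and Acta2 each held 2 matches, the first of Acta2 84 bases before the start, and 8.59% of all windows held at least 1. A match is a description of the letters in these windows, and Cnn1, Des and Cspg4 had none there. The windows of Myl9 (chr2:156775214-156775463, plus strand) and Acta2 (chr19:34255374-34255623, minus strand) are shown 5′ to 3′ because both genes are contractile members with papilloma levels above every other array, with the matches in capitals.
Myl9: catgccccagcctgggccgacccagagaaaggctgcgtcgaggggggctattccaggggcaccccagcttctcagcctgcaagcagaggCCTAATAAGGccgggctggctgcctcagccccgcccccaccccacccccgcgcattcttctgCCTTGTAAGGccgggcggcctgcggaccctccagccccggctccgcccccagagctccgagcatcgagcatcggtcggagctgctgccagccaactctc
Acta2: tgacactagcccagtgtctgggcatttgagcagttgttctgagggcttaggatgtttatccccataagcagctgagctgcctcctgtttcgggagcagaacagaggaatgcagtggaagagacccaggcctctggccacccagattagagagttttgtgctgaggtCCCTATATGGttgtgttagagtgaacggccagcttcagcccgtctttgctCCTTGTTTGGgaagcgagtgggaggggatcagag

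Des encodes desmin, the intermediate filament protein of muscle cells and of many pericytes, and it did not share the pattern of the other members. Its level was 6.18 and 5.74 in papilloma skin, 7.43 and 5.74 in tumor skin, 6.02, 6.97 and 7.35 in papilloma, and 6.54 and 6.096 in tumor. The highest array was tumor skin 1, and papilloma overlapped every other group. Papilloma was 1.77-fold above papilloma skin on average, with an SD of 0.69 (n = 3) within papilloma and 1.195 (n = 2) within tumor skin. Des was not well above background on papilloma skin 2, tumor skin 2 and papilloma 1. Its probe was the only one of the 10 that lay across a break in the genome, with 60 bases over 226 positions (mm9, chr1:75363404-75363629, plus strand), and it is shown because its readings stood apart.
Des probe: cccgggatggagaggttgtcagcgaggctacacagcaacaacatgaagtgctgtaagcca

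The other 9 probes of 60 bases each matched 1 unbroken stretch of mm9. Whether a probe lay in coding sequence or a UTR was not given in the files used here.

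Pdgfrb encodes the PDGF receptor beta, through which pericytes respond to endothelial PDGF-B. Its level was 6.75 and 6.49 in papilloma skin, 6.17 and 6.19 in tumor skin, 9.76, 9.72 and 10.08 in papilloma, and 7.85 and 7.87 in tumor. As for Actg2, Myl9 and Heyl, both tumor arrays lay above all skin arrays and below all papilloma arrays. Papilloma was 9.38-fold above papilloma skin and tumor 3.20-fold above tumor skin. Tumor skin 2 was not well above background for Pdgfrb.

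Cspg4 (probe at mm9 chr9:56746627-56746686, plus strand) encodes NG2, a surface proteoglycan of growing pericytes. Its level was 6.77 and 6.63 in papilloma skin, 7.04 and 7.35 in tumor skin, 8.63, 8.35 and 8.66 in papilloma, and 6.44 and 6.69 in tumor. Papilloma was 3.61-fold above papilloma skin, and tumor was 1.55-fold below tumor skin with no overlap. Tumor and papilloma skin overlapped.

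Heyl (probe at mm9 chr4:122926975-122927034, plus strand) encodes a transcriptional repressor of the Hey family, a target of Notch signaling in mural cells. Its level was 5.47 and 5.34 in papilloma skin, 5.64 and 5.53 in tumor skin, 7.72, 7.91 and 8.06 in papilloma, and 6.07 and 5.93 in tumor. The 4 groups did not overlap, in the order papilloma, tumor, tumor skin and papilloma skin. Papilloma was 5.63-fold above papilloma skin and tumor 1.33-fold above tumor skin, and Heyl was not well above background on papilloma skin 2 and tumor skin 2.

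Across the 9 arrays the level of each gene was set against the mean of the other 9. Pearson's r was 0.865 for Acta2 to 0.988 for Heyl in 9 genes and 0.390 for Des. The 3 papilloma arrays against the other 6 make up most of this relation, and the value is given as a description. Outside the papilloma arrays the members went separate ways: in tumor versus tumor skin 5 genes lay above without overlap (Actg2, Myl9, Cnn1, Pdgfrb and Heyl), 3 below (Acta2, Tagln and Cspg4) and 2 overlapped (Myh11 and Des), where 25.7% of all probes lay above and 26.4% below. All 10 members had a mean level of at least 6, but without the papilloma arrays Myh11 and Heyl did not, so that those 2 passed the level filter through papilloma.

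The contrast of tumor skin with papilloma skin was not used to choose the members, although it shares the skin arrays with those that were. No member was called by limma, where 0.26% of all probes were called in either direction. An unadjusted p under 0.05 was reached by 5 members and by 12656 of all 55681 probes. The smallest adjusted p by limma, 0.117, belonged to Tagln, which was 1.45-fold higher in tumor skin on both arrays (difference 0.54, SE 0.16). Cspg4 was also higher in tumor skin on both arrays (difference 0.50, SE 0.18), and Actg2 (difference -0.59, SE 0.20), Cnn1 (difference -0.46, SE 0.17) and Pdgfrb (difference -0.44, SE 0.17) were lower on both, with limma adjusted p of 0.148 to 0.183. With Heyl, 3 members lay above and 3 below without overlap, where 24.2% and 24.7% of all probes did. Acta2 and Myl9 differed by -0.09 and 0.06, less than their spread between arrays.

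The other genes of mural cells came from 2 lists, 24 genes (48 probes) of the contractile apparatus and 24 genes (26 probes) of pericyte and mural identity, from which the 10 members were left out. Both lists were drawn up with earlier results of these data known. Their counts use the same arrays as the choice of the members and are not independent of it. In papilloma versus papilloma skin 16 of the 26 pericyte probes rose and none fell, and 10 of the 48 contractile probes rose and 2 fell. The backgrounds were 2.18% of all probes higher and 1.0% lower. The median difference was 1.61 over the pericyte probes and 0.26 over the contractile probes, beside -0.01 over all probes. Rgs5, a regulator of G protein signaling that marks pericytes, rose most. Its level was 6.31 and 6.59 in papilloma skin, 6.58 and 5.57 in tumor skin, 9.78, 10.81 and 10.74 in papilloma, and 8.41 and 8.16 in tumor. Rgs5 was thus higher in papilloma by 3.99 (SE 0.37, limma adjusted p = 9.7e-04), with all 3 arrays above all others. Notch3, the Notch receptor of mural cells, went from 6.68 and 6.999 in papilloma skin to 10.31, 10.22 and 10.47 in papilloma (difference 3.50, SE 0.16, limma adjusted p = 1.1e-04).

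The remaining pericyte genes named by the rule were channels, gap junction proteins and signaling enzymes. Gja4 and Gjc1, connexins of the vessel wall, rose by 2.45 and 2.46, and Trpc6, a cation channel, rose by 2.44. Abcc9 and Kcnj8, the subunits of the vascular ATP-sensitive potassium channel, rose by 2.27 and 1.05. Gucy1b3, a subunit of the nitric oxide receptor guanylate cyclase, rose by 2.20, Higd1b by 2.19 and Ndufa4l2, which is induced by low oxygen, by 2.11. Of the 26 probes, 23 had a positive difference and 21 a mean level of at least 6. Mcam, an adhesion molecule shared by pericytes and endothelium, had 2 probes at differences of -0.15 and 0.54, neither of which was called.

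Among the contractile genes Itga7, the laminin receptor subunit of muscle, rose by 3.04 (SE 0.15, limma adjusted p = 1.2e-04), from 6.67 and 6.54 in papilloma skin to 9.45, 9.66 and 9.84 in papilloma. Nexn, an actin-binding protein, rose by 1.23, and the Tpm2 probes, for a tropomyosin, rose by 1.82 and 1.01. Genes of mature smooth muscle were not all among the called. Lmod1, which nucleates actin filaments in smooth muscle, stayed at 4.54 to 5.27 on all arrays and was well above background on 3 of them. The Smtn probes had differences of 0.61 and 0.89 and the Mylk probes of -0.03 and 0.87, none of them called. The 2 probes that fell were both for Tpm1 (differences -2.41 and -2.01), while another Tpm1 probe rose by 1.21, so the probes of this gene disagreed.

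**Figure D2:**
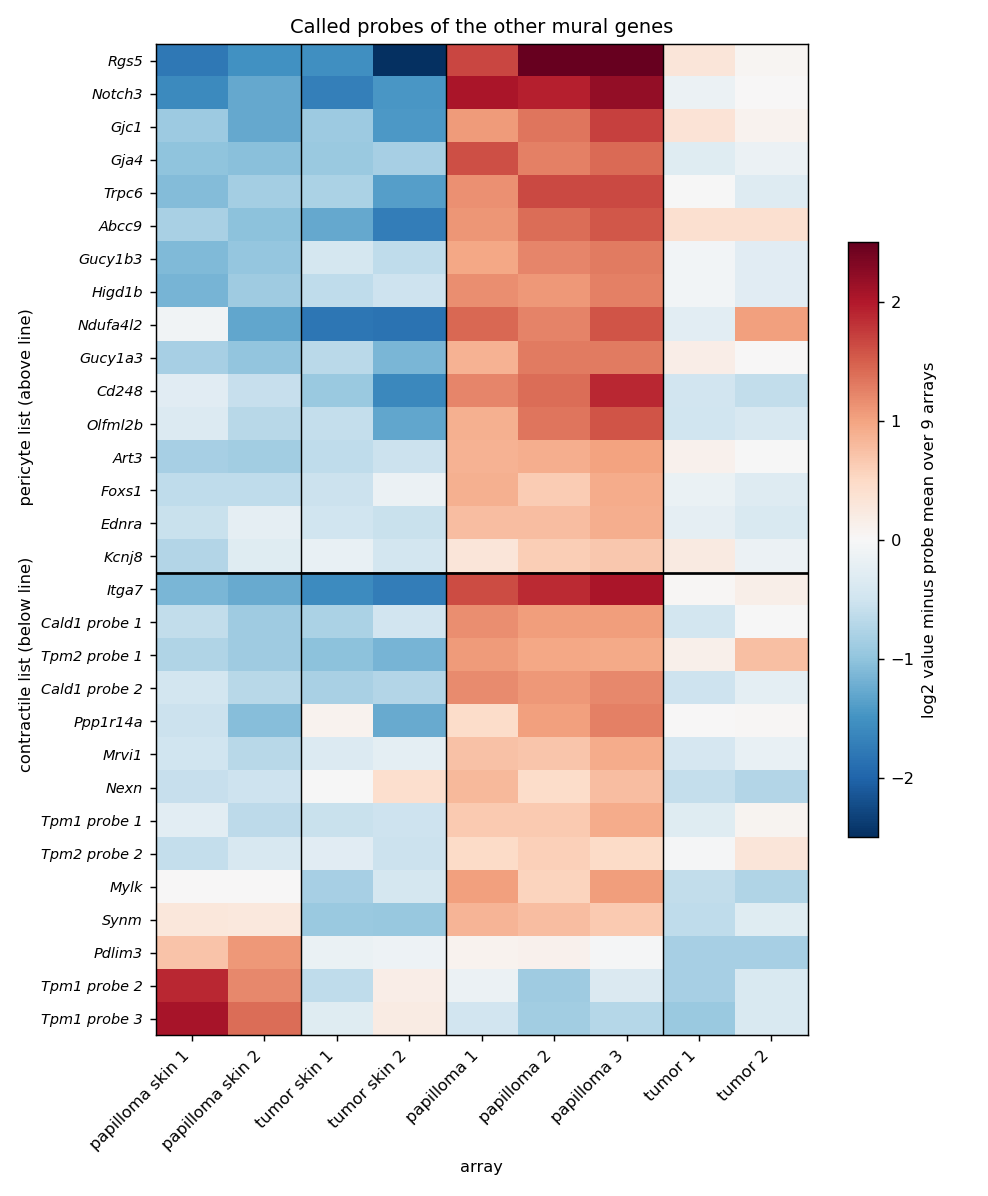
Log2 value minus the mean of the probe over the 9 arrays (color scale, saturated at its ends) for 30 of the 31 probes of the other mural genes that were called in at least 1 comparison, with arrays as columns and probes as rows. Most rows are red in the 3 papilloma columns and blue in the skin columns, and the last 3 rows, Pdlim3 and 2 probes of Tpm1, are highest in papilloma skin.

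In tumor versus tumor skin 8 of the 74 probes rose and none fell, against 2.71% of all probes higher and 1.51% lower. Among them were Rgs5 (2.21), Ndufa4l2 (2.20), Abcc9 (1.91), Notch3 (1.52) and Gjc1 (1.39) of the pericyte list and Itga7 (1.74) and Tpm2 (1.52) of the contractile list, with limma adjusted p of 0.0017 to 0.025. All 8 had also risen in papilloma, which made 30.8% of the 26 probes that rose there and 100% of the 8. Without papilloma skin 1 and tumor 1 the counts were 22 called probes in papilloma (13 pericyte and 7 contractile probes higher, 2 lower) and 5 in tumor, and without tumor skin 2, the array of lowest signal, 4 in tumor. When the groups were compared within slide 1, which held the first array of each, the pericyte median was 1.53 in papilloma and 0.45 in tumor, and the contractile median 0.56 and -0.09. Each group was 1 array there, and all of these but papilloma 1 were compressed. Within slide 2 the medians in papilloma versus papilloma skin were 1.97 for the pericyte and 0.58 for the contractile probes.

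In tumor versus papilloma, which uses the same lesion arrays again, 16 of the 74 probes fell and none rose, against 0.334% and 0.113% of all probes. Notch3 was lower in tumor (difference -2.13, SE 0.16, limma adjusted p = 0.0038), and so were Itga7 (-1.76), Gja4 (-1.65), Trpc6 (-1.64), a Mylk probe (-1.57), Higd1b (-1.35), Nexn (-1.34) and Gucy1b3 (-1.34). Rgs5 had a difference of -2.16 with an adjusted p of 0.053 in limma. The limma count was 4 without papilloma 3 and 9 without papilloma 1 or papilloma 2. Of all probes 34, 69 and 120 were called lower without papilloma 3, papilloma 1 and papilloma 2, against 186 with all arrays. Leaving out either tumor array, which left 1 in that group, also gave fewer calls, in the mural lists and over all probes. Without papilloma skin 1 and tumor 1, which left 1 array in each of those groups, no probe of the array was called. The lesion effect at the papilloma stage minus that at the tumor stage was positive in 64 of the 74 probes, with 35 at an unadjusted p under 0.05, but no probe passed in limma (smallest adjusted p 0.055). Among all probes 0.0144% were called for a larger effect in papilloma. In tumor skin versus papilloma skin 3 probes fell in limma, with 23 at an unadjusted p under 0.05, as were 12656 of all 55681 probes. None of the mural probes was called when any 1 array was left out. Calls over all probes also fell, as from 145 with all arrays to 4 higher and 5 lower without papilloma 1. The 3 probes were a Tpm1 probe (difference -1.78), Synm, a partner of desmin (-1.195), and Pdlim3, a Z-disc protein (-1.04), against 0.122% of all probes. Synm and Pdlim3 were named after their values were seen.

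**Figure D3:**
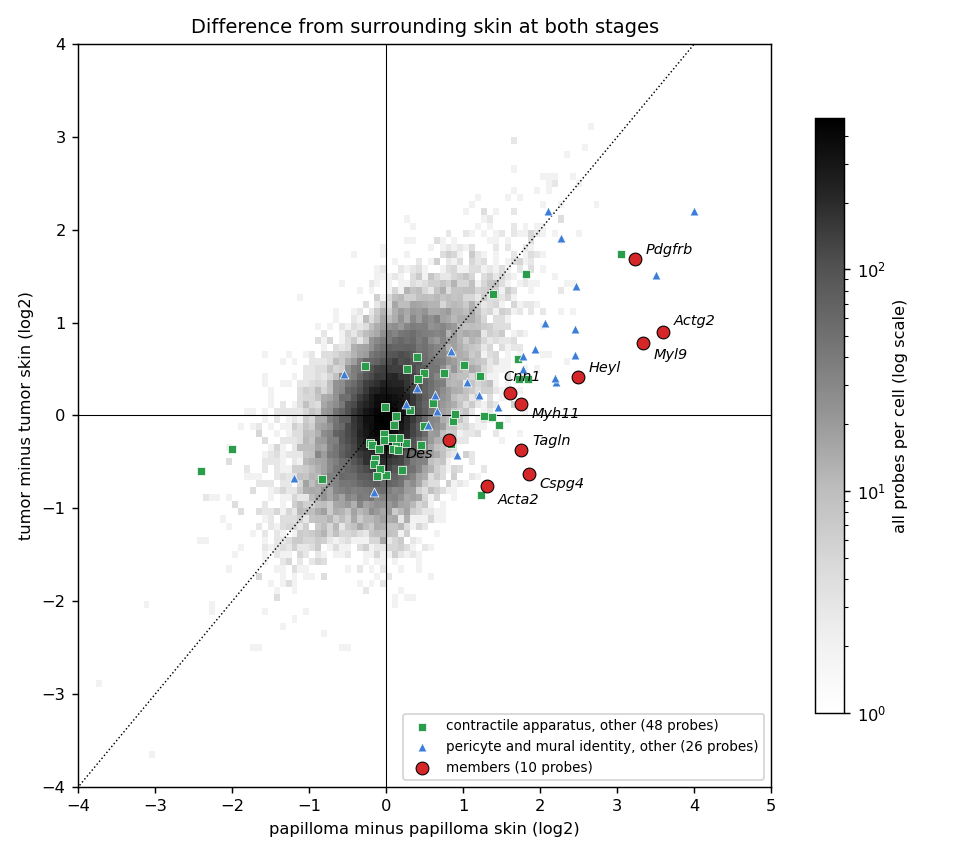
Difference of tumor from tumor skin (vertical axis, log2) against difference of papilloma from papilloma skin (horizontal axis, log2) for the 10 members, the other mural probes and, in gray, all probes, of which 79 lie outside the axes. The dotted line marks equal differences. All 10 members lie to the right of 0 and below the line, with Acta2, Tagln, Cspg4 and Des below 0 on the vertical axis.

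Growth factors of mural cells and regulators of their genes were also listed. Of 19 growth factor probes 5 rose in papilloma, 2 each of Pdgfa, a PDGF ligand (differences 2.05 and 1.84), and Tgfb2 (1.58 and 1.31) and 1 of Tgfbr1, a receptor of TGF-beta (1.46), and none was called by limma in tumor versus tumor skin (9 at an unadjusted p under 0.05). In tumor versus papilloma 3 fell, the Tgfb2 probes (-2.17 and -1.63) and Tgfb3 (-1.39), which was named after its value was seen. Of 18 probes for serum response factor, its partners and Notch components, Jag1, a Notch ligand, rose in papilloma (1.16), and Mkl1, a partner of serum response factor, fell in papilloma (-1.15) and in tumor (-1.11). Rbpj, the DNA-binding protein of the Notch pathway, rose in tumor on both of its called probes (1.92 and 1.03). Srf had a difference of -0.60 in papilloma and of -0.30 in tumor and was not called.

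Markers of other cells of the skin moved in part with the members. Of the 17 endothelial probes 11 rose in papilloma and 4 in tumor and none fell, among them Egfl7, a secreted vessel protein, which had 9.79 and 8.17 in papilloma skin and 11.80, 11.40 and 11.63 in papilloma (2.63) and was also higher in tumor (2.30). Cdh5, the cadherin of endothelial junctions, rose by 2.57 in papilloma and 2.39 in tumor, and Cldn5, a tight junction protein, by 2.33 in papilloma. In tumor versus papilloma no endothelial probe was called by limma, with 13 of 17 at an unadjusted p under 0.05. None had a positive difference there, and the endothelial median of -1.44 was lower than the pericyte median of -0.99. The log2 of the summed level of the 15 endothelial probes with a mean level of at least 6 was 13.06 to 13.47 in papilloma skin, 13.32 to 14.12 in tumor skin, 13.80 to 14.49 in papilloma and 12.86 to 13.37 in tumor, where a Kdr probe at 12.17 to 13.97 was the largest term (its difference in papilloma was -0.03, that of the other Kdr probe 2.26).

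Of 21 keratinocyte probes 4 rose in papilloma and 5 in tumor, the largest for Krt6b, a keratin of wounds and hyperplasia (4.88 and 7.23), and their summed level was 13.53 to 13.98 in papilloma skin, 13.38 to 14.31 in tumor skin, 14.42 to 15.59 in papilloma and 14.79 to 16.37 in tumor. Unlike the members, the keratinocyte probes were highest in tumor 2. Of 17 fibroblast probes Postn rose in papilloma (3.09), Fap rose in tumor (1.504) and Dcn, a matrix proteoglycan, fell in tumor (-1.38). The summed fibroblast level was 14.53 to 15.64 in papilloma skin, 13.53 to 14.13 in tumor skin, 15.41 to 16.02 in papilloma and 13.17 to 14.29 in tumor, so that papilloma skin and papilloma overlapped. Sums here and below are over probes with a mean level of at least 6, none of which was below background on all 9 arrays, and the part of such cells in the member levels was not tested. Without papilloma skin 1 and tumor 1 the endothelial counts were 8 in papilloma and 3 in tumor, those of keratinocytes 3 and 6 and those of fibroblasts 3 and 2, all higher. The growth factor list then had 6 probes higher in papilloma, 1 in tumor and none lower in tumor versus papilloma by limma (8 at an unadjusted p under 0.05), and the serum response factor and Notch list had equal counts with and without them.

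For the members themselves the summed level was 13.90 to 14.01 in papilloma, 11.93 to 12.21 in papilloma skin, 12.11 to 12.27 in tumor skin and 11.82 to 11.96 in tumor. For the neutrophil list it was 20.05 to 20.07 in papilloma, 20.30 to 20.33 in papilloma skin, 20.50 to 20.55 in tumor skin and 20.18 to 20.27 in tumor, with the granule genes Camp (-4.14 in papilloma and -3.57 in tumor) and Ngp (-3.27 and -3.39) among the 4 probes that fell in papilloma and the 6 in tumor. For monocyte and macrophage genes it was 15.58 to 15.84 in papilloma, 15.97 to 16.16 in papilloma skin, 15.86 to 16.06 in tumor skin and 15.53 to 15.65 in tumor, and both called probes, for Emr1, fell at both stages (-3.09 and -2.94 in papilloma). Without papilloma skin 1 and tumor 1 the counts of these lists were 4 and 7 for neutrophils and 2 and 2 for monocytes and macrophages, all lower.

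**Figure D4:**
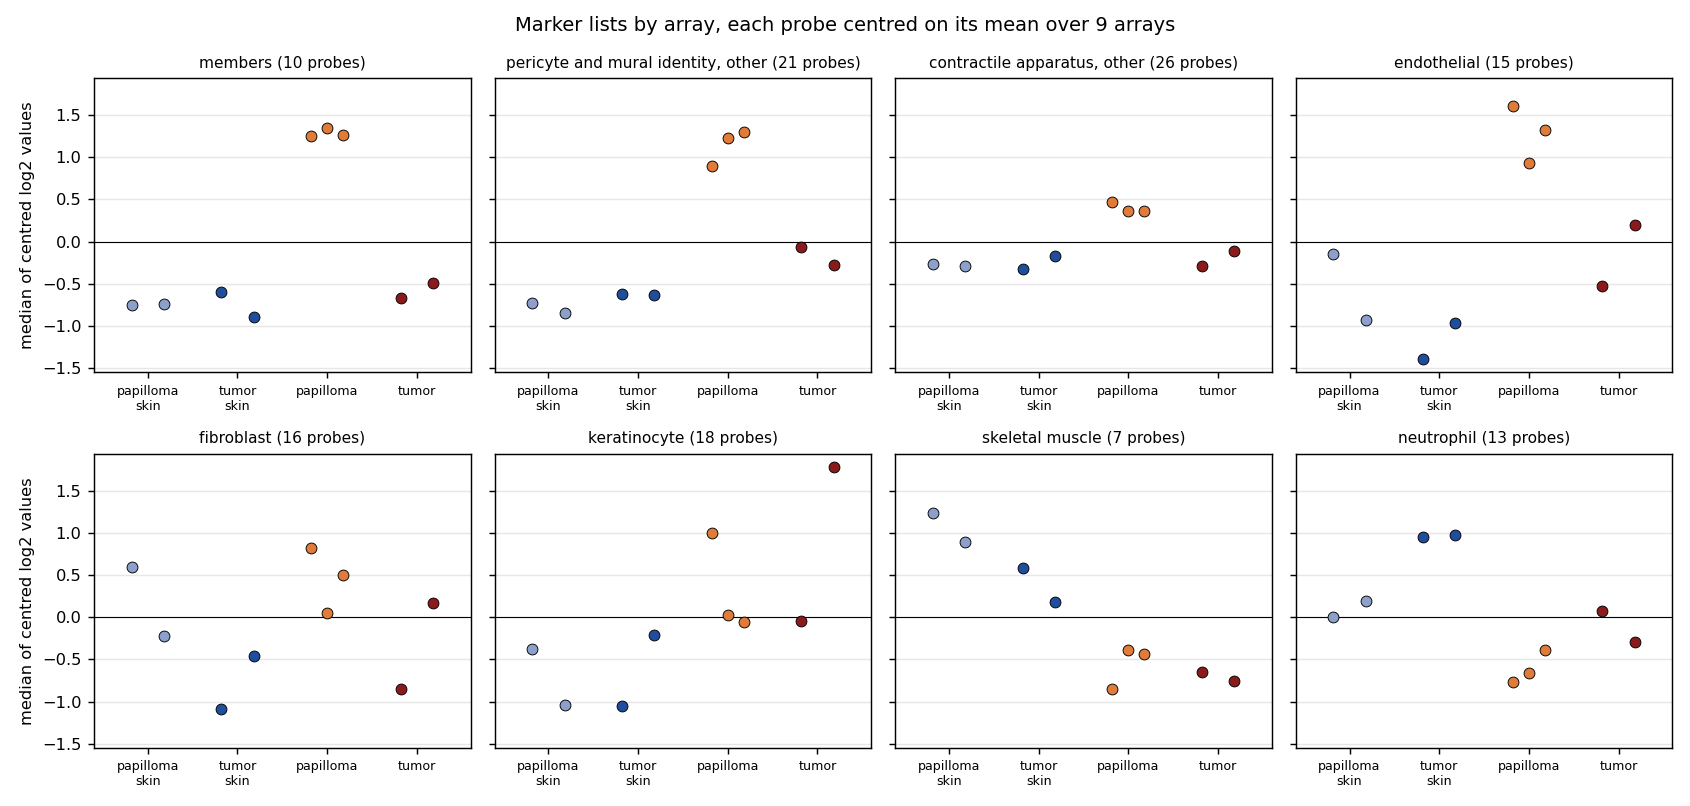
Median over the probes of each list of the log2 value centered on the mean of the probe over the 9 arrays (vertical axis) on each array, with 1 point per array and groups on the horizontal axis. The members and the pericyte list are highest in the 3 papilloma arrays, and the endothelial list is also highest there, whereas the keratinocyte list is highest on tumor 2.

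The 8 genes outside the members whose pattern over the 9 arrays was most like the mean of the members, out of 4826 probes with a mean level of at least 6 and an SD of at least 0.5, included Arhgef17, Cald1, Mmp11, Rundc3a, C1qtnf5, Ednra and Parm1, with Pearson's r of 0.994 to 0.981. The papilloma arrays against all others make up most of this likeness, which is given as a description. Arhgef17, a guanine nucleotide exchange factor, had mean levels of 5.70 and 5.72 in papilloma skin and tumor skin, 7.36 in papilloma and 5.83 in tumor. Arhgef17, Mmp11 and C1qtnf5 passed the level filter through papilloma, and their means were under 6 in both skin groups. Mmp11, a stromal matrix metalloproteinase, had 5.75, 5.92, 8.31 and 6.09 in the same order. Parm1 had the widest range, with 6.91, 6.88, 10.09 and 7.79. Cald1, the actin-binding caldesmon, and Ednra, an endothelin receptor, were also on the mural lists.

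The same members were read from the scanner signals of the arrays, which were quantile normalized and corrected for slide. There the difference in papilloma versus papilloma skin was positive for all members but Des (-0.74), with 5.28 for Actg2, 4.23 for Pdgfrb, 3.47 for Myl9, 2.89 for Heyl, 2.63 for Myh11, 2.16 for Cspg4, 1.75 for Tagln, 1.68 for Acta2 and 1.65 for Cnn1. In tumor versus tumor skin Cspg4 turned from -0.63 to 0.73 and Des from -0.27 to 1.01. Without papilloma skin 1 and tumor 1, the deposited values gave member medians of 1.87 in papilloma and 0.31 in tumor, with differences from 1.04 for Des to 3.57 for Actg2 in papilloma and from -0.72 for Acta2 to 1.69 for Pdgfrb in tumor. The slide-corrected scanner signals of all 9 arrays gave medians of 2.39 and 0.64.

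With the scanner signals of the 6 arrays of full slope alone, each skin group and tumor was 1 array, and tumor skin 2 was not well above background for Actg2, Myh11, Cnn1, Des, Pdgfrb and Heyl. The members were again higher in papilloma than in papilloma skin, by a median of 1.92, and lower in tumor than in papilloma, with a median difference of -1.9996. In tumor versus tumor skin the difference was 2.63 for Myl9, 0.10 for Acta2, 0.062 for Tagln and -0.54 for Cspg4, the 4 genes that tumor skin 2 measured above background. For the other 6 the value rested on a single dim reading, and no order of the lesion effects was read from it. The high papilloma level was thus present in both sources for the members other than Des.

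**Figure D5:**
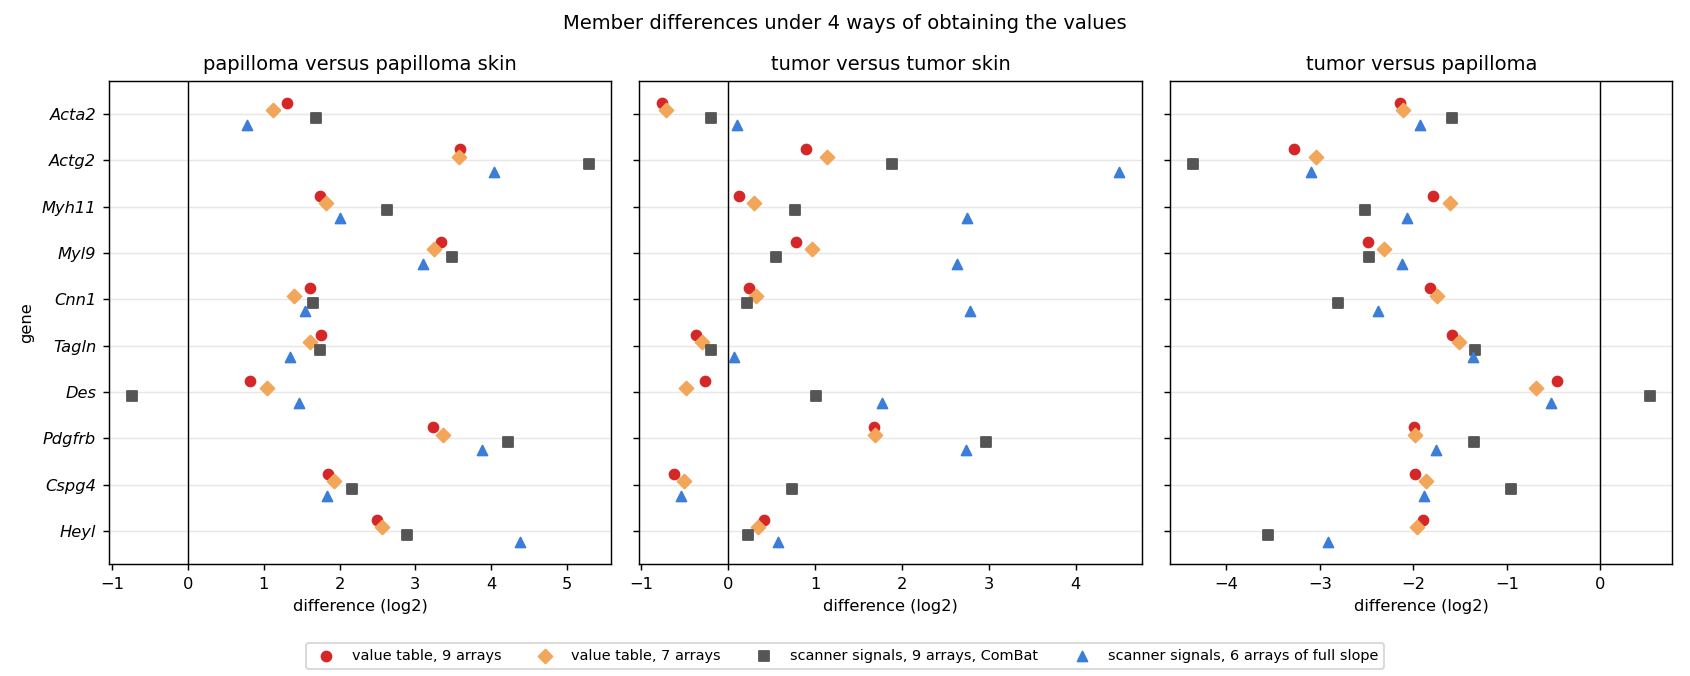
Differences of the 10 members (horizontal axes, log2) in 3 comparisons, from the deposited values of all 9 arrays, those without papilloma skin 1 and tumor 1, the slide-corrected scanner signals and the scanner signals of the 6 arrays of full spike-in slope, each with its own symbol. All symbols in the first panel lie to the right of 0 except that of Des from the slide-corrected scanner signals, and in the middle panel the symbols of the 6 arrays lie between 1.77 and 4.50 for 6 genes, all but Myl9 among those not well above background on the 1 tumor skin array used.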

How the data were processed

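The authors deposited a log2 value for each probe and array. The study's methods name quantile normalization (limma) and then ComBat against chip effects. Which of these steps the deposited values hold is not stated, and their column medians (6.08 to 6.12) show that arrays were put on a common scale. They also deposited, per array, scanner output of Feature Extraction 10.7.3.1 with fluorescence intensity per spot, background-subtracted per the file headers (build mm9), used here as an alternative source. Groups came from the labels.

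The log2 values were tested as given with limma 3.58.1 (R 4.3.3) on 55681 probes, 9 arrays and 4 groups, with 5 residual degrees of freedom, which limit the precision. A call needed an adjusted p (Benjamini-Hochberg) no higher than 0.05, a difference of 1 or more in either direction and a mean level of at least 6. An unadjusted p under 0.05 was common over all 55681 probes. It was reached by 11540 in papilloma versus papilloma skin, 14997 in tumor versus tumor skin and 8032 in tumor versus papilloma. Between the skins 12656 reached it, and 8174 did in the stage difference. With ComBat on the scanner signals it was 12319 of 55155 between the skins. The members and gene lists were chosen with earlier results of these data known. Gene names are those of the array, and each probe is shown. Named are all members, called probes of the mural lists up to 12 by size and 9 fixed genes, up to 3 called and 3 most abundant genes of each other list, and the 8 genes most like the members, some of which are not reported here.

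Scanner signals were log2 transformed for 55155 probes and quantile normalized or scaled to the 75th percentile, with normexp (offset 50) as another background correction, and corrected for slide by an own ComBat or a term in the model. Alternatives also concerned the level minimum, dim probes, the replicate block, medians per gene, arrays that stood apart and each array left out. The fits were tested on simulated data. Python 3.11.15, pandas 2.3.3, numpy 2.4.6, matplotlib 3.10.9 and version 1.17.8 of data.table were used. Promoter windows came from RefSeq (GRCm38.p6), and protein sequences were not used here.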

Additional observations from a re-analysis of the deposited data

Results flagged for a closer look

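In 3 of the 10 genes the lesion effects had opposite directions at the stages, with every papilloma array above every papilloma skin array and every tumor array below every tumor skin array. Among all probes, every tumor array lay below every tumor skin array in 26.4%, so 3 of 10 is near that share. The difference itself was not tested, since the genes had been chosen by these values. For Acta2, the actin of vascular smooth muscle, papilloma was 1.30 above papilloma skin and tumor -0.76 relative to tumor skin. For Tagln, the actin-binding transgelin, the differences were 1.75 and -0.38, and for Cspg4, the pericyte proteoglycan NG2, 1.85 and -0.63. All 3 genes were well above background on all 9 arrays, a mark that most probes had on the compressed arrays. In the slide-corrected scanner signals the tumor differences were -0.20 for Acta2 and Tagln and 0.73 for Cspg4, and with the 6 arrays of full spike-in slope alone they were 0.10, 0.062 and -0.54.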

How the results depend on the processing

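The members' papilloma excess over papilloma skin was positive in 135 of 140 values over the 14 alternatives that could move it, and tumor minus papilloma was not positive in 135 of 140, the exceptions being Des. Members called lower in tumor versus papilloma were 9 in the deposited values, 6 with the 75th percentile, 3 with normexp, and 0 with ComBat, slide as a term, the replicate block, no slide correction, the full-slope arrays or without papilloma skin 1 and tumor 1 (6 to 9 at an unadjusted p under 0.05 in limma). Reversed were, with scanner signals in the order ComBat, no slide correction, slide as a term, 75th percentile and normexp, Des in papilloma (-0.74, -1.02, -0.75, -0.29, -0.71) and in the stage difference (-1.75, -1.95, -1.66, -1.37, -1.29, and -0.31 on the 6 full-slope arrays), Cspg4 in tumor versus tumor skin (0.73, 0.79, 0.75, 0.28, 0.50) and Heyl between the skins (-0.89, -0.78, -0.95, -1.04, -0.33). Without slide correction and on the full-slope arrays, tumor versus tumor skin was 0.16 and 0.10 for Acta2 and 0.032 and 0.062 for Tagln. On the full-slope arrays Tagln was -0.078 between the skins, and the stage difference was -0.47 for Actg2, -0.74 for Myh11 and -1.23 for Cnn1, against a tumor skin array not well above background for these genes and Des, so no reversal is read from them. The cause was not tested. A 0 for members or, below, mural probes is read beside all probes. Scanner signals without slide correction or with slide as a term called 0 of 55155 probes in every comparison. With ComBat 0 were called in tumor versus papilloma, between the skins and in the stage difference. There the value table called at most 1 with slide as a term or the replicate block. Residual degrees of freedom were 2 in the full-slope fit and 3 without papilloma skin 1 and tumor 1, and both left groups of 1 array, which limits their counts. Where these fits called no member or mural probe, they called no other probe either.

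Counts of called mural probes depended more on the processing, on which the counts over all probes also depended. In papilloma versus papilloma skin they were 16 with ComBat, 17 with the replicate block, and 0 without slide correction, with slide as a term and on the full-slope arrays (29, 27 and 31 at an unadjusted p under 0.05 in limma), and leaving out 1 array gave 22 to 28. In tumor versus tumor skin they were 1 with ComBat, 4 with normexp, 3 with the replicate block, 5 without papilloma skin 1 and tumor 1, and 0 under the other scanner settings and with slide as a term in the value table (7 to 22 at an unadjusted p under 0.05), and leaving out 1 array gave 4 to 9. In tumor versus papilloma they were 6 with the 75th percentile, 1 with normexp and 0 with ComBat, without slide correction, with slide as a term, the replicate block, without papilloma skin 1 and tumor 1 and on the full-slope arrays (18 to 41 at an unadjusted p under 0.05 in limma), and leaving out 1 array gave 1 to 18. In tumor skin versus papilloma skin they were 4 with no level minimum, 1 without dim probes or with medians per gene and 0 otherwise (1 to 17 at an unadjusted p under 0.05), and leaving out 1 array gave 0 to 0. For the stage difference medians per gene gave 5, and leaving out 1 array gave 0 to 0, as for member probes between the skins. Replicate 1 of all 4 groups lay on slide 1 and replicate 2 of all groups but tumor skin on slide 2, but same-numbered arrays did not deviate together in every pair of groups (r -0.90 to 0.28), so the replicate block was kept as an alternative.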

Other observations

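Genes of skeletal muscle, which lies under the skin of the mouse, ran opposite to the smooth muscle and pericyte genes. Of 19 probes 6 fell in papilloma and 2 in tumor and none rose, against 1.0% and 1.51% of all probes called lower. Tnnc2, the calcium-binding troponin of fast fibers, had 10.45 and 10.05 in papilloma skin, 8.80 and 8.52 in tumor skin, 6.89, 7.01 and 7.13 in papilloma, and 7.53 and 7.33 in tumor. Both lesions were below all skin arrays, and tumor skin was below papilloma skin (difference -1.59, SE 0.19, limma adjusted p = 0.034). Myl1, a light chain of fast myosin, fell in papilloma by 3.67 and was also lower in tumor skin than in papilloma skin (difference -2.40), and Acta1, skeletal alpha-actin, had differences of -1.74 in papilloma and -1.53 in tumor. Tnni2, a fast troponin, fell in papilloma by 1.34. The log2 of the summed level of the 7 skeletal muscle probes with a mean level of at least 6 was 12.18 to 12.60 in papilloma skin, 11.33 to 11.65 in tumor skin, 10.44 to 10.83 in papilloma and 10.65 to 10.67 in tumor. Without papilloma skin 1 and tumor 1 the limma counts were 2 lower in papilloma, 1 lower in tumor and 0 between the skins (9 at an unadjusted p under 0.05).

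The contractile list held the Tpm1 probes that fell in papilloma, whose levels were 9.22 and 8.56 in papilloma skin and 6.30 to 6.69 in papilloma for the probe with the larger difference, and the third called Tpm1 probe went the other way, from 7.62 and 7.22 to 8.54, 8.53 and 8.82. Pdlim3, at 7.08 and 7.46 in papilloma skin, was below this in all other groups, with 6.21 and 6.26 in tumor skin, 6.46, 6.47 and 6.35 in papilloma and 5.55 and 5.54 in tumor.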
